A study of Apis mellifera with 3 samples.

Results

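Vitellogenins, hexamerins, lipid-carrying apolipophorins and transferrins of the honeybee were followed across RNA libraries recorded as coming from hypopharyngeal glands. The members were the transcript sequences whose best protein match carried the word vitellogenin, hexamerin, arylphorin, apolipophorin, lipophorin or transferrin, without enzymes that transfer a chemical group. The words found 22 of 21441 sequences. A phosphatase whose full name includes "acetyl-transferring" was dropped, which left 21 sequences matching 14 protein entries. They comprised 3 vitellogenin, 5 hexamerin, 5 lipid carrier, 6 transferrin and 2 receptor sequences.

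The study compared 3 pools of full-sister workers of the subspecies Apis mellifera carnica Pollmann from queens inseminated artificially, 1 pool of winter bees, 1 of spring bees and 1 of retired bees. The labels add day 3 after emergence to the winter pool, day 6 to the spring pool and day 9 to the retired pool. The sources used here do not say whether the day is the bees' age or a collection. Season, task and labelled day differ together among the pools and cannot be told apart. A pool of 30 bees made up each library, n = 1 per group, and differences have no replicate check. The question, from the title and design text, was how the activity of the gland and its output of royal jelly are regulated across the winter.

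Storage and transport proteins of the blood link the bee's fat stores to its other tissues. Vitellogenin is a yolk precursor that worker bees make in the fat body, a liver-like and fat-storing tissue, and that nurse bees are known to draw on when they make brood food. It is known for high levels in long-lived winter bees, and it and juvenile hormone are known to hold each other down in workers. Hexamerins are amino acid stores of larval blood. Apolipophorins carry fats between tissues as lipophorin particles, and transferrins bind iron in the blood.

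The libraries held 3.85 M (winter), 3.29 M (spring) and 3.18 M (retired) uniquely mapped reads. Levels are given as RPKM, reads per kilobase of sequence and per 1 M reads of the library, so they may be compared between sequences. The design text speaks of pooled heads and the protocol of glands, and fat body also lies in the head. Sequences of fat body enzymes outside the members summed to 434.3, 483.8 and 480.6 RPKM in winter, spring and retired bees. Most of that came from glycogen phosphorylase, which other tissues also use. Without it the sums were 120.5, 105.5 and 114.5 RPKM, in another order. Royal jelly sequences, the secreted products of the gland, summed to 55311, 165084 and 131122 RPKM in winter, spring and retired bees. The nerve cell sequences tested numbered 24 in both comparisons with winter and 23 in the other. Of these, 0 differed in any comparison by at least 1 in log2 of (RPKM + 1), the 2-fold rule used throughout. Of all sequences tested, at most 2.14% were 2-fold higher and at most 5.43% lower in any comparison. The largest differences of nerve cell sequences included the active-zone protein bruchpilot (TC13107) at 69.8, 49.96 and 42.7 RPKM. The others were a synapsin-like sequence (BI510780) at 50.2, 59.5 and 101.0 RPKM and an Elav-like sequence (BI505924) at 15.5, 9.88 and 7.39 RPKM. In plain RPKM, without the added 1, both of these differed by slightly more than 2-fold between the winter and retired libraries. In the gland list, 22 of 35 sequences tested in spring over winter were higher by 2-fold or more and 1 was lower, against 2.14% and 4.76% of all sequences. The largest differences in that list were in sequences of major royal jelly protein 2 (DB745886 and TC22243), 5.23-fold and 5.87-fold higher in spring than in winter bees, and of major royal jelly protein 6 (TC12389), 3.38-fold lower. Here and in every result below, fewer cells of a type and less RNA per cell cannot be told apart.

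Together the 21 sequences took 0.506% of the winter reads (95% Wilson interval 0.499 to 0.514%), 0.339% of the spring reads (0.333 to 0.345%) and 0.339% of the retired reads (0.332 to 0.345%). Transferrins made up 55.8% of these reads in the winter library, 44.7% in the spring library and 51.7% in the retired library. Lipid carriers made up 36.9%, 52.0% and 45.9% in that order. Vitellogenins, hexamerins and receptors shared the small rest. A single sequence gave at least 91.3% of the reads of its family in each library for vitellogenins, lipid carriers, transferrins and receptors, but between 48.5% and 70.5% for hexamerins. The sum of all members is therefore mostly a statement on 1 transferrin and 1 apolipophorin sequence. Without these, the other 19 sequences held 1052 retired, 1086 spring and 2488 winter reads. That sum was 1.96-fold lower in the spring than in the winter library (1.82 to 2.10) and 1.95-fold lower in the retired than in the winter library (1.82 to 2.10).

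**Figure D1:**
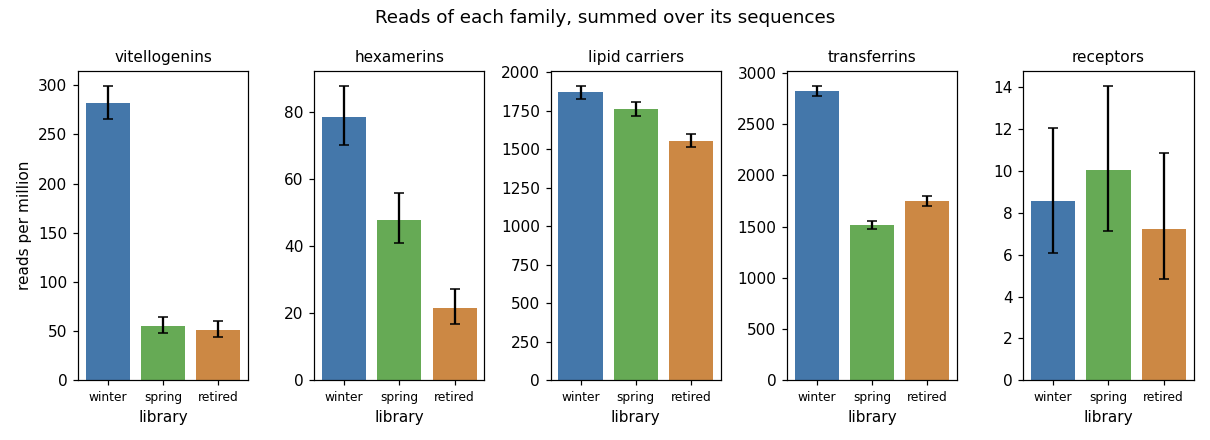
Bars show reads per 1 M uniquely mapped reads for each family, summed over its sequences, in winter, spring and retired bees (1 each); error bars are 95% Wilson intervals that cover counting error only. Vitellogenins stood at 282.5 reads per 1 M in winter, 55.7 in spring and 51.6 in retired bees, hexamerins stepped down over the libraries, and lipid carriers differed least among the 4 carrier families.

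Intervals of folds are exact conditional binomial 95% intervals on read counts. They cover counting error only, take copies made by PCR as separate molecules, and compare libraries rather than kinds of bees. Of the 21 sequences, 10 reached 10 RPKM in a library and 11 stayed below it in all. Sequences were counted as 2-fold different when log2 of (RPKM + 1) differed by at least 1 and 1 of the libraries compared had at least 10 RPKM. All comparisons draw on the same 3 libraries in pairs, so they are not independent of each other.

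In spring over winter, 1 of 9 such members was at least 2-fold higher, against 2.14% of all 12038 sequences. The 1 member that was at least 2-fold lower stood against 4.76% of all sequences. The median difference of the 9 members was -0.47 on the log2 scale, and that of all sequences -0.26. The fold interval lay below 1 for 6 of the 9 members, against 34% of all sequences, and above 1 for 1 of them, against 7.4%. In retired over winter, 1 of 10 members was at least 2-fold higher (1.31% of all 11955 sequences) and 2 were at least 2-fold lower (5.43%). Their median was -0.40, against -0.26 for all sequences. Here 6 of the 10 intervals lay below 1, against 33.8% of all sequences, and 1 lay above 1, against 5.65%. In retired over spring, 0 of 9 members were at least 2-fold higher (1.81% of all 11413 sequences) and 1 was at least 2-fold lower (1.96%). Intervals lay below 1 for 2 of these 9, against 11% of all, and above 1 for another 2, against 8.71%. With 9 or 10 members of which several match the same protein, these shares describe the sequences and nothing wider.

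The members at either end were single ones. Vitellogenin and a hexamerin were highest in the winter library, and an apolipophorin-III-like sequence was lowest there. Rescaling to a median ratio of 1 over all sequences raises spring and retired over winter by 1.20-fold and 1.23-fold. A difference from winter under about that size depends on the scaling.

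**Figure D2:**
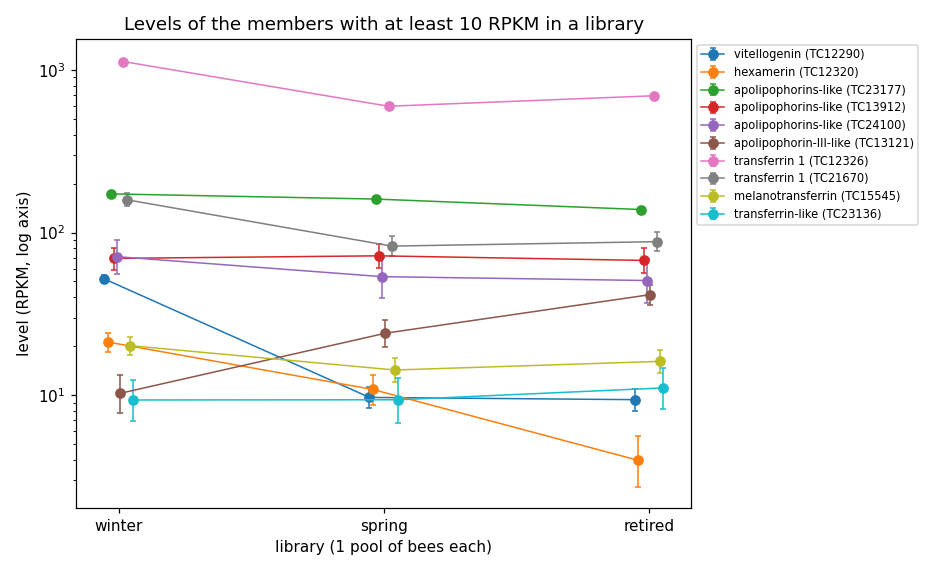
Points show the level in RPKM (log axis) of the 10 members that reached 10 RPKM in a library, in winter, spring and retired bees, with exact 95% Poisson intervals of the read count. Vitellogenin stood at 51.8 RPKM in winter bees and under 10 RPKM in the others, the hexamerin TC12320 stepped down and apolipophorin-III-like TC13121 stepped up from library to library, and transferrin 1 (TC12326) was the most abundant in each.

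Among the yolk proteins, vitellogenin (Vg, sequence TC12290, 5399 bases) had 1077, 172 and 161 reads in winter, spring and retired bees, or 51.8, 9.69 and 9.39 RPKM. The winter library stood alone, and the other two lay close together. In the winter library 84.6% of all sequences were at or below the level of vitellogenin, against 48.8% in spring bees and 49.3% in retired bees. Reads covered a fraction of 0.953 of its length in winter, 0.683 in spring and 0.702 in the retired library, so most of the transcript was touched. The depth along it is not given by this fraction. Vitellogenin was 5.52-fold lower in the retired than in the winter library (4.68 to 6.56) and 5.35-fold lower in the spring than in the winter library (4.55 to 6.32). After rescaling its folds were 0.222 and 0.210 in retired over winter and 0.224 and 0.216 in spring over winter, in the same direction. The first of each pair, from the median ratio, is a smaller difference than the interval allows. Between the retired and the spring library the fold of vitellogenin was 0.969 (0.776 to 1.21), an interval that includes no difference.

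Vitellogenin was near the edge of the sequences with a protein match in both comparisons with winter. Sequences without a match were left out of this ranking. Among 7645 other sequences with a protein match and at least 10 RPKM in a library, 21 had as low or a lower log2 difference in spring over winter. For retired over winter the count was 4, and 0 were as low in both. Both differences are set against the same winter library, so a high winter value moves them together. Vitellogenin also reached the 10 RPKM minimum only in that library, so these ranks describe its winter level and test nothing. The sequences nearest to vitellogenin by these differences were a calcium release-activated calcium channel protein 1-like sequence (NP9545413) with 45, 4 and 6 reads and an uncharacterised sequence (TC21694) with 8155, 1220 and 2036 reads. They lay at distances of 0.34 and 0.66 on the log2 scale. The next were a ribosomal RNA processing protein 1 homolog (CK630925) with 8, 2 and 1 reads, an uncharacterised sequence (NP9549887) with 88, 21 and 18 reads, and a 40S ribosomal protein S3a sequence (BP875096) with 42, 8 and 10 reads. All values are in the order winter, spring, retired. Likeness over 3 libraries is a description, and all 5 but TC21694 rest on at most 88 reads in any library.

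A vitellogenin-2-like entry, a relative of vitellogenin, was hardly read. Its sequences BI507356 and TC13667 held 7, 5 and 3 reads and 3, 6 and 0 reads in winter, spring and retired bees. Summed, they were 10, 11 and 3 reads, with a fold in spring over winter of 1.29 (0.496 to 3.38). A difference of the size seen for vitellogenin lay outside that interval. In retired over winter the fold was 0.363 (0.0643 to 1.41), so that a difference of that size could not be told from none at this depth.

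The vitellogenin receptor, which takes vitellogenin up into the egg in insects, was read at a low level. Its sequence NP9552791 had 31, 32 and 21 reads, or 1.65, 1.995 and 1.36 RPKM, in winter, spring and retired bees. The intervals of all its folds included 1, with 0.820 in retired over winter (0.448 to 1.47). The lipophorin receptor sequence NP9933087, for the uptake of lipid particles, had 2, 1 and 2 reads in that order, which is too few to compare.

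Of the hexamerins, 1 sequence carried most reads. The hexamerin entry TC12320 had 213, 93 and 33 reads in winter, spring and retired bees, or 21.2, 10.8 and 3.98 RPKM. The 3 Poisson intervals did not overlap, at 18.5 to 24.3 RPKM in winter, 8.76 to 13.3 in spring and 2.74 to 5.60 in the retired library. It was 1.96-fold lower in spring than in winter (1.53 to 2.52), 2.72-fold lower in the retired than in the spring library (1.81 to 4.18) and 5.33-fold lower in the retired than in the winter library (3.68 to 7.94). Only 9 of the 7645 other described sequences had as low or a lower log2 difference in retired over winter. Unlike vitellogenin, it differed between the retired and the spring library, where it was the only member at least 2-fold lower.

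The gene symbol of TC12320 could not be taken from its protein entry. Hexamerin 70b (HEX70b, TC12341), a storage protein whose gene lies between Hex70a and Hex70c in the gene order of assembly Amel_HAv3.1, had 31, 27 and 21 reads in winter, spring and retired bees. Its levels were 3.64, 3.71 and 2.99 RPKM, and every interval of its folds included 1. The fold of hexamerin 70b in retired over winter was 0.820 (0.448 to 1.47), an interval that lies above that of TC12320 (0.126 to 0.272).

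Hexamerin 110 (Hex110), a larger storage protein, was split over a pair of entries that may share reads, TC12311 with 38, 27 and 10 reads and TC15633 with 19, 10 and 3 reads. Each held fewest reads in the retired library. Their sum was 13 retired reads, 37 spring reads and 57 winter reads. It was 3.62-fold lower in the retired than in the winter library (1.96 to 7.21) and 2.75-fold lower in the retired than in the spring library (1.43 to 5.64). In spring over winter the fold of the sum was 0.760 (0.488 to 1.17). A further hexamerin sequence, TC12330, had 1, 0 and 1 reads. Over the 4 hexamerin sequences other than TC12320, the retired library was 2.10-fold lower than the winter library (1.41 to 3.20). The Hex110 and 4-sequence sums were formed after the values had been seen.

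The large apolipophorins, which form the protein backbone of lipophorin, differed little between the libraries. The sequence TC23177 (10376 bases), matched to an apolipophorins-like protein of the dwarf honeybee Apis florea, had 6899, 5478 and 4565 reads in winter, spring and retired bees. Its levels were 172.8, 160.6 and 138.5 RPKM, with 0.947, 0.940 and 0.935 of its length covered. It stepped down slightly from library to library. It was 1.08-fold lower in the spring than in the winter library (1.04 to 1.12), and rescaling turned this to 1.11-fold and 1.07-fold higher, so its direction depends on the scaling. Retired bees stood 1.25-fold below winter bees (1.20 to 1.30), with folds of 0.982 and 0.931 after rescaling, the first with an interval that included 1 (0.946 to 1.02). In retired over spring it was 1.16-fold lower (1.11 to 1.21), where both rescalings move ratios by at most 1.02-fold.

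Shorter sequences with the same match were read at lower levels. TC13912 had 69.3, 71.9 and 67.4 RPKM and TC24100 had 71.1, 53.5 and 50.7 RPKM in winter, spring and retired bees, and the intervals of all their folds included 1. Reads covered 177, 177 and 175 of the 626 bases of TC13912 in the same libraries, so its level rests on about the same short stretch each time.

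The small lipid carrier went the other way. The apolipophorin-III-like sequence TC13121 (A4), whose insect relatives attach to lipophorin when it is loaded with fat, had 59, 118 and 197 reads in winter, spring and retired bees. Its levels were 10.3, 24.0 and 41.5 RPKM, with Poisson intervals of 7.82 to 13.2, 19.9 to 28.8 and 35.9 to 47.8 RPKM that did not overlap. It was 2.34-fold higher in the spring than in the winter library (1.70 to 3.26), 1.73-fold higher in the retired than in the spring library (1.37 to 2.19) and 4.04-fold higher in the retired than in the winter library (3.01 to 5.51). As high or a higher log2 difference was found for 39 of 7645 other described sequences in retired over winter and for 144 in spring over winter. Reads covered only 241, 493 and 403 of its 1493 bases in winter, spring and retired bees. A level resting on part of a sequence can hold reads of a near-identical copy, and this was not tested. A second A4 sequence, BI505274, had 0, 1 and 0 reads.

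Set against the large apolipophorins within the same library, which removes the scaling, A4 stood at 0.0594 of the RPKM of TC23177 in winter, 0.150 in spring and 0.300 in retired bees. Vitellogenin stood at 0.300, 0.0603 and 0.0678 of it in the same order, and the hexamerin TC12320 at 0.123, 0.0676 and 0.0288. These ratios show that the members differed unequally and not which of them stayed constant.

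**Figure D3:**
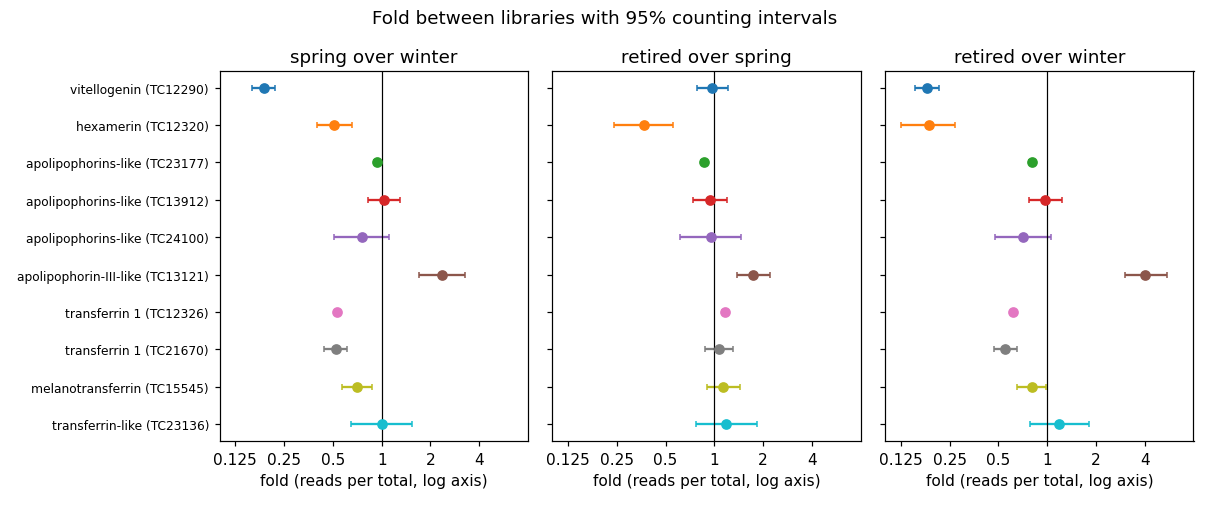
Points show the fold in reads per library total (log axis) of each member with at least 10 RPKM in a library, in each pair of libraries (spring to winter, retired to spring, retired to winter), with exact 95% counting intervals and a line at 1. Vitellogenin lay far below 1 in both comparisons with winter and at 0.969 in retired over spring, TC12320 lay below 1 and A4 (TC13121) above 1 in all panels.

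Transferrin 1 (Tsf1), the iron-binding protein of the blood, was the most abundant member in every library. Its sequence TC12326 had 10101, 4585 and 5139 reads in winter, spring and retired bees, or 1125, 597.5 and 693.0 RPKM. It ranked 41st among all sequences in the winter library, 104th in the spring and 76th in the retired library. Winter was highest and spring lowest. It was 1.88-fold lower in the spring than in the winter library (1.82 to 1.95), and folds of 0.636 and 0.614 after rescaling keep that direction. In retired over winter it was 1.62-fold lower (1.57 to 1.68), and in retired over spring 1.16-fold higher (1.11 to 1.21). As low or a lower log2 difference was found for 326 of 7645 other described sequences in spring over winter and for 708 in retired over winter.

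A second Tsf1 sequence, TC21670, had 467, 207 and 213 reads, or 159.1, 82.5 and 87.9 RPKM, in winter, spring and retired bees. It was 1.93-fold lower in the spring than in the winter library (1.63 to 2.28), close to the other Tsf1 sequence, and its fold in retired over spring was 1.06 (0.875 to 1.30). Sequences matching the same protein are not replicates of a pool. A further sequence, BP540152, had 1, 1 and 0 reads.

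The relatives of transferrin differed less. Melanotransferrin (TC15545), a relative that is anchored in the cell membrane in vertebrates, had 233, 141 and 154 reads, or 20.2, 14.3 and 16.1 RPKM, in winter, spring and retired bees. It was 1.41-fold lower in the spring than in the winter library (1.14 to 1.75) and 1.25-fold lower in the retired than in the winter library (1.01 to 1.54). Both calls ended on rescaling, with intervals that included 1 and folds of 0.848 and 0.819 in spring over winter and 0.981 and 0.930 in retired over winter. The transferrin-like sequences TC23136, at 9.34, 9.37 and 11.1 RPKM, and TC16581, at 8.53, 4.70 and 4.86 RPKM, match 1 protein. Their sum of 56 retired, 50 spring and 66 winter reads gave intervals that included 1 in every comparison, with a fold of 0.887 in spring over winter (0.601 to 1.30) that became 1.06 and 1.03 after rescaling. The deposited interval lies above the one of Tsf1 summed over its 3 sequences (0.513 to 0.549).

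**Figure D4:**
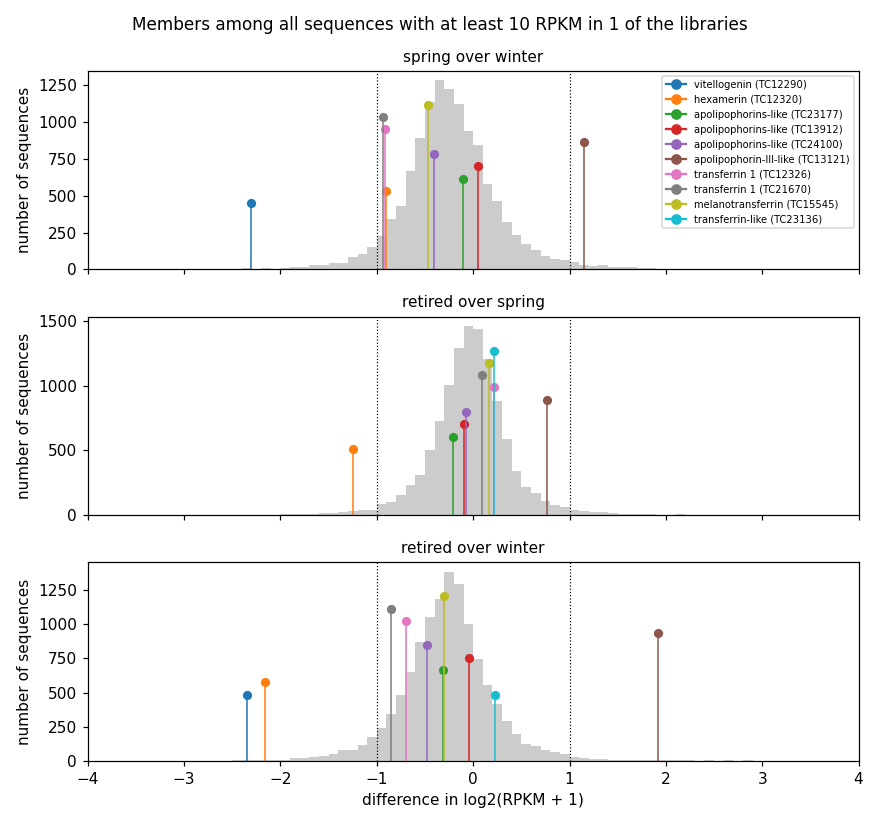
Grey bars count the sequences that reached 10 RPKM in either library compared, by their difference in log2(RPKM + 1), in each pair of libraries (spring to winter, retired to spring, retired to winter; differences beyond 4 in either direction are not drawn); coloured stems mark the members that passed the same minimum, stem height has no meaning, and dotted lines mark 2-fold. Vitellogenin at -2.31 and -2.35 and A4 at 1.15 and 1.92 in the comparisons with winter lie in the thin tails. The transferrin 1 stems (TC12326 and TC21670) lie between -0.94 and -0.70 there, on the low side but short of 2-fold. The stems of the other transferrins and of the large apolipophorins lie within the bulk.

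Other genes of lipid and iron handling mostly showed differences under 2-fold, as did most of all sequences. In any comparison at most 2.14% of all sequences were at least 2-fold higher and at most 5.43% lower. The lipid and iron lists here and below are too short to be set apart from these shares. Of 14 sequences for lipoprotein receptors and particle assembly tested in spring over winter, 1 was at least 2-fold higher and 0 lower. The shares of all sequences were 2.14% and 4.76%. The median was -0.34 on the log2 scale against -0.26 for all. The higher sequence was TC22575, matched to low-density lipoprotein receptor-related protein 2, an uptake receptor, with 28 spring reads against 14 winter reads. Another sequence of that match, NP9549817, had 31.4, 25.9 and 12.7 RPKM in winter, spring and retired bees and was 2.48-fold lower in the retired than in the winter library (2.17 to 2.84). Of 12 sequences tested in retired over winter, it was the only one at least 2-fold lower, against 5.43% of all sequences. A further and more read sequence of that match, TC13626, had 106.8, 71.7 and 78.0 RPKM in winter, spring and retired bees. TC13626 was 1.37-fold lower in the retired than in the winter library (1.29 to 1.46), so the sequences of this match differed unequally. A microsomal triglyceride transfer protein sequence (TC20773), for loading fat onto such particles, had 7.38, 11.1 and 5.75 RPKM, with intervals that included 1.

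None of 5 iron storage and transport sequences was at least 2-fold different in any comparison, and their medians were -0.25 for spring bees and -0.10 for retired bees over winter bees, and 0.06 for retired over spring bees. Ferritin heavy chain (TC12676), which stores iron, had 285.9, 365.6 and 331.8 RPKM in winter, spring and retired bees. It was 1.28-fold higher in the spring than in the winter library (1.18 to 1.38). Another sequence matched to a ferritin heavy chain, TC15170, had 77.1, 64.5 and 67.1 RPKM. Its fold in spring over winter was 0.837 (0.6996 to 1.0001), on the other side of 1. Soma ferritin (TC15536) had 97.5, 74.9 and 80.5 RPKM, and the metal transporter Malvolio (TC12881) 29.1, 19.8 and 27.1 RPKM.

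Of 10 intracellular lipid and sterol carriers, 0 differed 2-fold in any comparison. The NPC2 homolog TC18353, a sterol-binding protein, had 227.2, 135.4 and 147.8 RPKM in winter, spring and retired bees and was 1.68-fold lower in the spring than in the winter library (1.49 to 1.90). Another NPC2 homolog (TC16416) had 7.42, 10.9 and 12.9 RPKM, and oxysterol-binding protein-related protein 11 (TC21672) 26.9, 35.2 and 24.9 RPKM. Of 2 sequences for fat storage and release, diacylglycerol O-acyltransferase 1 (TC14964), the last step of fat synthesis, had 50.4, 25.5 and 27.5 RPKM. It was 1.98-fold lower in the spring than in the winter library (1.64 to 2.40). Hormone-sensitive lipase-like TC14592 had 17.9, 15.1 and 13.8 RPKM.

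Among 5 sequences of juvenile hormone and insulin signalling tested in retired over winter, 1 was at least 2-fold lower and 0 higher. The shares of all sequences were 5.43% and 1.31%. The lower one was a sequence of the insulin-like receptor InR-2 (NP9551823), with 124, 55 and 30 reads in winter, spring and retired bees. It was 3.41-fold lower in the retired than in the winter library (2.28 to 5.27). Another InR-2 sequence (NP9551825), under 10 RPKM in every library, had 72, 45 and 38 reads. There the retired library was 1.56-fold lower than the winter library (1.04 to 2.38). Ultraspiracle (Usp, TC12297), a nuclear receptor tied to juvenile hormone and ecdysone, had 36.9, 26.3 and 28.4 RPKM, while juvenile hormone epoxide hydrolase 2 breaks the hormone down. A short sequence of that enzyme (TC16496) had 22.0, 21.8 and 32.4 RPKM, with a fold in retired over winter of 1.47 (0.980 to 2.23), and its longer sequence (TC14333) had 33.8, 33.8 and 33.4 RPKM. Juvenile hormone esterase (Jhe, TC12340), under 10 RPKM in every library, had 51, 17 and 14 reads. It was 2.56-fold lower in the spring (1.46 to 4.73) and 3.01-fold lower in the retired (1.64 to 5.88) than in the winter library.

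Markers of fat body and blood cells give the setting of these values. Of 25 fat body sequences, 8 reached 10 RPKM, and by reads the list took 766.9, 773.4 and 758.6 per 1 M in winter, spring and retired bees. Most of its summed RPKM came from glycogen phosphorylase, at 313.8, 378.3 and 366.1 RPKM in winter, spring and retired bees, which muscle and other tissues also use. Without it the other 19 sequences summed to 120.5, 105.5 and 114.5 RPKM as deposited. Those gaps from winter are smaller than the 1.20-fold and 1.23-fold by which rescaling raises spring and retired over winter. Their order therefore depends on the scaling. The glycogen phosphorylase sequence TC19393 was the 1 list member at least 2-fold different, with 23.9, 64.2 and 54.1 RPKM. Its other sequence TC23807 had 19.4, 12.2 and 16.0 RPKM, and glycogen synthase (TC15927) had 14.1, 10.6 and 9.01 RPKM. By marker, sums in the same order were 45.8, 43.4 and 43.1 RPKM for fumarylacetoacetase and related hydrolases, 30.4, 22.1 and 28.0 RPKM for trehalose-phosphate synthase and 18.1, 18.1 and 18.4 RPKM for 4-hydroxyphenylpyruvate dioxygenase. Henna (phenylalanine hydroxylase) stood lower at 5.91, 5.80 and 3.23 RPKM, and homogentisate 1,2-dioxygenase at 1.65, 0.676 and 6.95 RPKM. Tyrosine aminotransferase had 4, 3 and 6 reads, the lipid storage droplet protein 3 in each library and the adipokinetic hormone receptor 12, 11 and 11. Urate oxidase was represented by 0 sequences.

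The 10 blood cell sequences summed to 202.4, 146.7 and 158.7 RPKM in winter, spring and retired bees. Of 6 tested in each comparison with winter, 1 was at least 2-fold lower in spring bees and 2 in retired bees, with 0 higher. The shares of all sequences that were lower were 4.76% and 5.43%. Prophenoloxidase (PPO, TC12322), of the melanin defence, had 267, 97 and 94 reads and was 2.35-fold lower in the spring than in the winter library (1.86 to 3.00) and 2.35-fold lower in the retired than in the winter library (1.85 to 3.00). Hemocytin (TC15331), a clotting protein, had 12.2, 8.32 and 5.18 RPKM and was 2.35-fold lower in the retired than in the winter library (1.998 to 2.77), and nimrod C2 (TC15521) had 16.3, 12.0 and 10.1 RPKM. In the same order, peroxidasin summed to 99.4, 73.8 and 90.3 RPKM and integrin beta to 40.6, 36.0 and 38.3 RPKM. Their gaps between retired and winter bees are smaller than the 1.23-fold of the rescaling, so that order depends on the scaling. Hemolectin, eater and lozenge were represented by 0 sequences. As deposited, these blood cell values were highest in the winter library, as vitellogenin, the hexamerin and Tsf1 were. The part of blood or fat body in the members' differences was not tested.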

How the data were processed

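Each library was deposited by the authors as 1 table listing, per the file headers, uniquely mapped read counts, sequence length, the fraction of the length covered (coverage), RPKM and the best protein match. RPKM as deposited were checked for every sequence to be its read count per kilobase and per 1 M reads. Sequences without reads are not listed and were taken as 0. Neither the aligner nor the counting tool nor the sequence set release is given in the sources used here. Gene symbols came through protein accessions from a RefSeq gene table of assembly Amel_HAv3.1, which matched 13 of 21 members and served for names and gene order only. Only uniquely mapped reads were counted, so near-identical sequences can lose reads. Each group had 1 library, so no test across samples was possible.

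Members and lists were chosen with earlier results of these data known. Members with at least 10 RPKM in a library were named, as were up to 3 sequences with the largest difference of each context list of lipid, iron, hormone and tissue genes, and the 5 sequences nearest to vitellogenin. The code for folds and intervals was run on simulated Poisson counts with differences planted in well-read sequences only. Such a run checks the code, and not the spread between pools or sequences of few reads. Alternatives covered pseudocount, minimum RPKM, scaling, fold threshold and sums per protein. Tools were Python 3.11.15 with scipy 1.17.1, numpy 2.4.6, matplotlib 3.10.9 and pandas 2.3.3.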

Additional observations from a re-analysis of the deposited data

How the results depend on the processing

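The counts of members at least 2-fold different were recomputed under 10 alternatives, which gave the same count in 47 of 60 cases. With a pseudocount of 5, 0 members were 2-fold higher in spring over winter and 0 were lower in retired over spring. With a minimum of 50 RPKM, 0 were higher in spring over winter, 0 lower in retired over spring, 0 higher in retired over winter and 1 lower in retired over winter. A 4-fold threshold left 0 higher in spring over winter, 0 lower in retired over spring and 0 higher in retired over winter. With a minimum of 1 RPKM or none, 4 were lower in retired over winter and 2 in retired over spring. Those added are sequences of few reads. The rescalings, TPM, a pseudocount of 0.1 and sums per protein gave the same counts. Of the folds of named members and per-protein sums, 8 of 90 rescaled values lay on the other side of 1. In 4 of them the deposited interval had excluded 1, all for the apolipophorins-like match in spring over winter. There the sequence TC23177 moved to 1.11 and 1.07, and the sum over its 3 sequences to 1.11 and 1.08, when scaled to a median ratio of 1 and to totals without royal jelly and the most abundant sequences. The other 4 were TC13912 in retired over winter (1.19 and 1.13) and the transferrin-like sum in spring over winter (1.06 and 1.03), whose deposited intervals included 1. In a further 16 the rescaled value lay outside the deposited interval but on the same side of 1. No paired analysis was possible because each group has 1 library.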
